A study of Mus musculus with 2 samples.

Results

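Conventional CD4 T cells were taken from single-cell transcript counts of mouse lung adenocarcinoma, as T cells with a counted Cd4 transcript and no counted transcript of the CD8 coreceptor or of Foxp3. They numbered 165 of the 15389 deposited cells, and 165 of the 7438 cells that the authors annotated as immune in the CD45-positive library (2.22%). The members were selected on the data themselves. Each belongs to the deposited immune class of that library, with at least 2 UMI (unique molecular identifiers, counted transcripts) of Cd3d, Cd3e and Cd3g together and at least 1 UMI of Cd4. None has a UMI of Cd8a, Cd8b1 or Foxp3, and upper limits on Ikzf2, Cd163l1 and Il17a, B cell receptor, C1q and cell cycle genes leave out cells with more of those transcripts. Members with a low count of them, or with other transcripts of regulatory T cells, B cells or macrophages, remain. These 19 genes describe the choice and are not results.

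The series holds 2 droplet libraries of 3' transcript ends from the lung tumours of C57BL/6 mice, parted by magnetic beads into a CD45-negative (3957 cells) and a CD45-positive fraction (11432 cells). CD45 is the surface phosphatase of leukocytes, and the CD45-negative library held 0 members. Cell names carry the word LucOS, which the labels do not explain. The sources used here give neither the tumour model and its stage nor the number, sex and age of the mice. With 1 library per fraction there was no replicate, so no difference below has a test against variation between animals, because cells of 1 library are no replicates of each other. Intervals in parentheses are 95% intervals and, like floors for counts of 0, cover counting error only.

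CD4 T cells recognise peptides on MHC class II molecules through their T cell receptor, with CD4 as coreceptor. After activation they help other cells, through CD40 ligand and through secreted cytokines. Helper lineages are named for a leading transcription factor and its cytokines: T-bet with interferon gamma in Th1 cells, GATA3 with interleukins 4, 5 and 13 in Th2 cells, and BCL6 with interleukin 21 in follicular helper cells. Th17 cells are known for interleukin 17. Foxp3-expressing regulatory T cells share the CD4 coreceptor and restrain the others. In lung, memory CD4 T cells that stay in the tissue carry CXCR6 and CD69, while those that recirculate keep CCR7.

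The members were shallow and partly mixed with the transcripts of other cells. They had between 2205 and 9175 UMI (median 2849) and between 783 and 2283 genes with a UMI (median 1091). The mitochondrial share ran from 1.62% to 45.2% with a median of 3.64%, and 37 members lay above 5%. The library holds more cells than the 6000 loaded per channel. The libraries shared 57 cell barcodes, of which 0 belonged to members, and no doublets were removed. A member was called mixed where any of 9 marker lists of other cell types reached 20 UMI, a limit set after the data were seen. This held for 44 of 165 members (26.7%, 20.1 to 34.1%), for 27.5% of CD8 T cells (24.9 to 30.2%), 30% of regulatory T cells (16.6 to 46.5%) and 47.2% of T cells with neither Cd4 nor Cd8 (43.9 to 50.6%).

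Dendritic cell and macrophage markers reached 20 UMI in the most members. The 12 macrophage and monocyte markers summed to a median of 3 UMI per member and a highest value of 190 UMI, and 19 members reached 20 UMI. For the 13 dendritic cell markers the median was 2 and the highest 311 UMI, with Xcr1 and Siglech at 0, and 25 members reached 20 UMI. This list is shared with B cells, which had a median of 56 UMI of it (19591 CPM, against 5258 CPM in members), and 278 of 282 B cells passed the limit for mixed cells. The 8 neutrophil markers had a median of 1 and a highest value of 51 UMI. The 9 alveolar type 2 and secretory markers had a median of 6 UMI in members, 6 in CD8 T cells and 7 in B cells, and 164 of 165 members had at least 1 UMI, but 1 member held 961. Of the plasma cell markers, 4 of 9 are in the table. They had a median of 2 and a highest value of 555 UMI. The summed level of macrophage markers was 3309 CPM (UMI per 1000000 summed UMI) over all members and 871 CPM over the 121 that were not mixed. That of dendritic markers was 869 CPM over the members that were not mixed. Both lists are part of the definition of mixed members, so lower sums without those members were bound to follow. Killer cell markers reached 20 UMI in 9 members (Klra8 at 0) and erythroid markers in 1 (Alas2 at 0). The 11 killer cell markers include Tyrobp and Fcer1g, which myeloid cells also carry. Their sum was 1314 CPM over all members and 445 CPM over those that were not mixed. Markers of B cells (highest 11 UMI), endothelium (6), type 2 innate lymphoid cells (7, Arg1 at 0) and mast cells (9, Ms4a2 at 0) stayed under 20 UMI in every member.

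**Figure D1:**
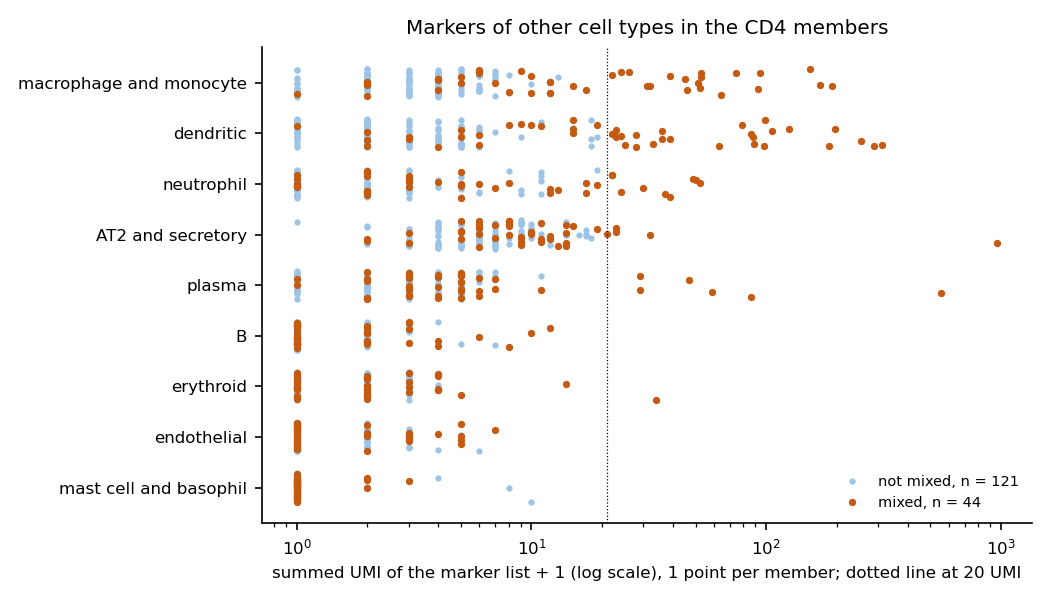
Each point is 1 of the 165 members, placed by the summed UMI of a marker list of another cell type plus 1 on a log axis; orange points are the 44 mixed members and the dotted line stands at 20 UMI. Most members lie at a few UMI of every list, and single members reach 961 UMI of the secretory and 555 UMI of the plasma cell list.

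A few members therefore set the level of some genes. The member with the most UMI (9175) held 940 of the 1054 UMI of Scgb1a1, the secretory protein of club cells, beside 8 CD3 UMI. A further one held 535 UMI of Jchain, the joining chain of secreted antibody, and 196 of the dendritic cell chemokine gene Ccl17. A member with 2 CD3 UMI held 72 of the 78 UMI of the monocyte chemokine gene Ccl7, 35 of the 47 of Tnf, 76 of Ccl4 and 72 of Cxcl2. Another with 2 CD3 UMI held 61 of the 79 UMI of Fabp1, a fatty acid binding protein gene, with 75 of Lyz2 and 42 of Chil3, both macrophage genes. Values for these genes are given below with and without the highest cell. Counts for groups of genes against CD8 T cells are followed by those without mixed cells where the genes past 2-fold then differ. Mixed cells are defined by marker genes that include Scgb1a1, Jchain, Mzb1, Lyz2, Chil3, Ccr2, Ccl22 and the globin genes. For these genes a value without mixed cells is partly set by that definition and is no independent check.

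Cd4 was counted once in most members. Of the 165, 137 had 1 Cd4 UMI, 25 had 2 and 3 had 3 (196 UMI in all). The gene lies on chromosome 6 from 124864692 to 124888221 (minus strand, GRCm38, protein-coding, ENSMUSG00000023274). When T cells were gated without regard to Cd4, a Cd4 UMI was found in 165 of 1050 Cd8-negative conventional T cells (15.7%, 13.6 to 18.1%). The share was 18.6% of 215 regulatory T cells (13.6 to 24.5%), 13.6% of 176 gamma-delta-like T cells (8.94 to 19.6%) and 7.08% of 1215 CD8 T cells (5.70 to 8.67%). In cells that should lack the transcript it was 1.77% of 282 B cells (0.578 to 4.09%) and 3.25% of 1324 cells of the alveolar type 2 class (2.36 to 4.35%). Median depths were 2766.5, 3061, 2870, 2979, 2873 and 4239 UMI in that order. When each cell was thinned to 1000 UMI, the order held, with 6.10%, 9.77%, 5.68%, 2.06%, 0.709% and 0.906% respectively. The share in Cd8-negative T cells was above that in CD8 T and B cells and did not differ from that in regulatory and gamma-delta-like T cells beyond the counting intervals.

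The limits of the choice were narrow. Relaxing the Cd4 limit alone would add 885 T cells with neither Cd4 nor Cd8, and relaxing the Cd8 limit alone 86 cells with 1 to 11 Cd8 UMI. Relaxing the limit on Cd79a and Cd79b alone would add 71 cells, the limit on CD3 38, on Cd163l1 and Il17a 24, on Ikzf2 21 and on Foxp3 10. Just inside the limits, 20 members had exactly 2 CD3 UMI (median 5, highest 23), 25 had 1 Ikzf2 UMI, 21 had 1 UMI of Cd163l1 or Il17a and 14 had 1 UMI of Cd79a or Cd79b. At this depth a cell with 0 Foxp3 UMI can still be a regulatory T cell, and a cell with 0 Cd4 UMI can still be a CD4 T cell.

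Cd40lg, the gene of CD40 ligand, is a marker of CD4 helper cells that had no part in the choice. It was higher in the members than in CD8 T cells and B cells. The gene lies on chromosome X from 57212143 to 57224042 (plus strand, GRCm38, protein-coding, ENSMUSG00000031132). The members had 25 UMI in 24 cells, with at most 2 in any cell, or 47.0 CPM (30.4 to 69.4). CD8 T cells stood at 8.28 CPM (5.63 to 11.8), and the level in members was 5.67-fold that (3.21 to 9.93). B cells stood at 4.16 CPM (1.13 to 10.6), a ratio of 11.3 (3.90 to 44.7). T cells with neither Cd4 nor Cd8 were between, at 23.3 CPM (17.9 to 29.7), and the ratio was 2.02 (1.22 to 3.25). Gamma-delta-like T cells had 26.4 CPM (14.0 to 45.1) and regulatory T cells 19.5 CPM (4.01 to 56.9, 3 UMI). The ratios of 1.78 (0.877 to 3.79) and 2.41 (0.737 to 12.5) have intervals that include equality.

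Within the members, Cd40lg stood at 91.5 CPM (41.8 to 174) in the 28 cells with at least 2 Cd4 UMI and at 36.9 CPM (21.1 to 59.9) in the 137 with 1, a ratio of 2.48 (0.966 to 5.96). The 86 T cells with both Cd4 and Cd8 UMI had 29.1 CPM (13.9 to 53.5). The 121 members that were not mixed had 63.6 CPM (40.3 to 95.5) and the 44 mixed ones 11.7 CPM (1.42 to 42.4). A Cd40lg UMI was found in 14.5% of members (9.55 to 20.9%), 2.57% of CD8 T cells (1.73 to 3.67%) and 1.42% of B cells (0.388 to 3.59%), at median depths of 2849, 2953 and 2873 UMI. After thinning the shares were 3.64%, 0.709% and 0.355%. With a UMI in 24 of 165 members, Cd40lg describes the members as a group and does not identify single cells.

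**Figure D2:**
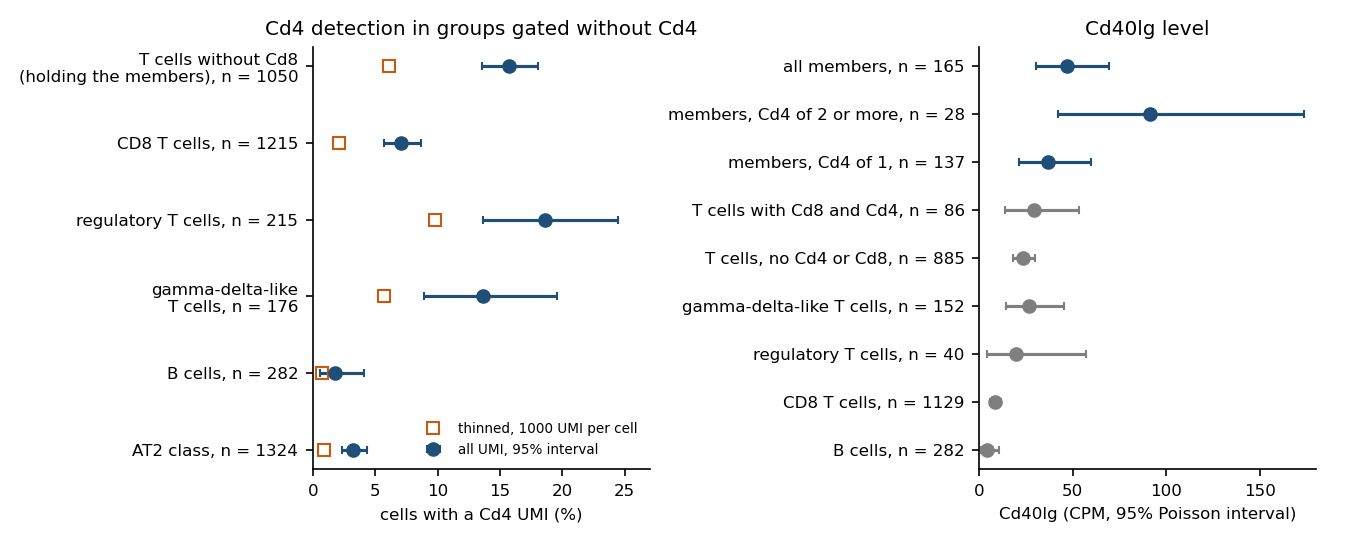
Left, percent of cells with a Cd4 UMI in 6 groups gated without Cd4, with 95% intervals (blue) and after thinning to 1000 UMI per cell (orange squares). Right, Cd40lg level in CPM with 95% Poisson intervals, blue for members and grey for other groups: all members stood at 47.0 CPM and CD8 T cells at 8.28 CPM.

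The members carried the transcripts of T cell receptor signalling at levels above those of CD8 T cells, though under 2-fold. All 16 genes of the list had a UMI in the members, which summed to a median of 10 UMI per cell. The list stood at 3309 CPM in members, 2487 CPM in CD8 T cells, 2159 CPM in T cells with neither Cd4 nor Cd8 and 552 CPM in B cells. Lat, the membrane adaptor of the pathway, had 264 UMI in 123 members, or 496 CPM (438 to 560), against 318 CPM in CD8 T cells (ratio 1.56, 1.36 to 1.78). Lck, the kinase bound to the coreceptor, had 472 CPM against 384 CPM (ratio 1.23, 1.07 to 1.41). Cd28, the receptor for B7 ligands, had 350 CPM against 238 CPM (ratio 1.47, 1.25 to 1.72). Of the 15 list genes compared with CD8 T cells, 0 passed 2-fold in either direction, and the median log2 ratio was 0.44, against 0.05 over all genes compared. Without mixed cells 1 passed it, Cd5, at a ratio of 2.07. The chains of the T cell receptor are not in the table, so invariant natural killer T cells cannot be told apart. Zbtb16, their leading factor, had 4 UMI in 4 members (7.52 CPM, 2.05 to 19.2).

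Among costimulatory receptors and ligands, Icos and Cd28 had the most UMI in members. Icos, a CD28-like receptor induced on activated T cells, had 191 UMI in 100 members, or 359 CPM (310 to 414), against 209 CPM in CD8 T cells (ratio 1.71, 1.46 to 2.01) and 41.6 CPM in B cells. Tnfsf8, the gene of CD30 ligand (chromosome 4 from 63831308 to 63861347, minus strand, GRCm38), had 86 UMI in 45 members, or 162 CPM (129 to 199.6). Its level was 116 CPM in CD8 T cells, 76.7 CPM in T cells with neither Cd4 nor Cd8 and 45.4 CPM in regulatory T cells. Tnfrsf18 (GITR) stood at 126 CPM (97.6 to 160) and Tnfrsf4 (OX40) at 105 CPM (79.5 to 137), next to 129.8 and 101 CPM in CD8 T cells. Tnfsf11, the gene of RANK ligand, had 17 UMI in 13 members (31.9 CPM, 18.6 to 51.2).

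Most members had no counted transcript of Tbx21, Gata3 or Bcl6, which encode the helper lineage factors T-bet, GATA3 and BCL6. Of 165 members 118 had none of these (71.5%), 43 had 1 and 4 had 2 or more. Gata3 was found in 39 members, Tbx21 in 10 and Bcl6 in 2. Tbx21 and Gata3 were found together in 4 members. At a median of 2849 UMI per cell these counts do not sort single members into lineages.

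Gata3, which CD4 T cells also need for their own maintenance, had the most UMI of the 3. Its level was 94.0 CPM (69.7 to 124; 50 UMI) in members and 56.4 CPM (49.0 to 64.5) in CD8 T cells, a ratio of 1.67 (1.20 to 2.28). Regulatory T cells had 110 CPM (64.2 to 177) and B cells 9.36 CPM (4.28 to 17.8). Tbx21 stood at 20.7 CPM (10.3 to 37.0), next to 19.2 CPM in CD8 T cells (ratio 1.07, 0.514 to 2.04). Bcl6 had 2 UMI (3.76 CPM, 0.455 to 13.6), a level like that in CD8 T cells (4.54 CPM) and B cells (2.08 CPM). Zbtb7b, which encodes the CD4 lineage factor ThPOK, had 10 UMI (18.8 CPM, 9.01 to 34.6), against 11.8 CPM in CD8 T cells (ratio 1.60, 0.718 to 3.23).

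Maf and Id2 stood out by count among the other factors. Maf, a factor of interleukin 10, 17 and 21 expression in T cells, had 102 UMI in 67 members, or 192 CPM (156 to 233). CD8 T cells had 75.6 CPM (67.0 to 84.9; ratio 2.54, 2.002 to 3.19), regulatory T cells 318 CPM (235 to 420), gamma-delta-like T cells 260 CPM (217 to 309) and B cells 25.0 CPM (16.0 to 37.1). Id2, an inhibitor of E proteins in effector lymphocytes, had 340 CPM (292 to 393) in members and 390 CPM in CD8 T cells. Tcf7, the gene of the memory factor TCF1, had 165 CPM (133 to 204) and Runx3, a factor of the CD8 and Th1 lineages, 133 CPM (104 to 168). Of 17 factors compared with CD8 T cells, 1 was at least 2-fold higher in members (Maf) and 0 lower, and without mixed cells Id3 was higher as well (2.19). This was read against 2.71% of all 7754 genes compared that were at least 2-fold higher in members and 5.87% that were at least 2-fold lower.

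Helper cytokines were sparse. Ifng, the Th1 cytokine, had 21 UMI in 16 members, or 39.5 CPM (24.4 to 60.3), against 124 CPM in CD8 T cells. CD8 T cells were thus 3.15-fold higher (2.03 to 5.13). Il17f had 8 UMI in 4 members (15.0 CPM, 6.49 to 29.6), Il4 had 5 UMI in 3 members and Il2 5 UMI in 4 members (9.40 CPM each, 3.05 to 21.9). Il13 and Il22 had 1 UMI each. Il21 and Csf2 had 0 UMI, with a floor of 3 counts at 5.64 CPM, and 0 of 165 cells allows a share with a UMI of up to 1.82%. Il3, Il5 and Il9 are not in the table. Tnf stood at 88.3 CPM (64.9 to 117), but 74.5% of its 47 UMI came from 1 member. The cytokines with the most UMI were Ltb (lymphotoxin beta) at 507 CPM (449 to 572), Mif at 327 CPM (280.2 to 379) and Tgfb1 at 162 CPM (129 to 199.6). CD8 T cells had 488, 369 and 183 CPM of these, so the members did not stand apart from them by 2-fold. Of 9 genes of the Th1 list compared with CD8 T cells, Tnf was higher and Ifng lower, and without mixed cells Ifng alone passed 2-fold. Of 3 of the Th2 list, Il1rl1 was higher, and of 5 of the Th17 list, 0 were higher and the chemokine gene Ccl20, with 0 UMI in members, was lower. Ccl20 did not pass 2-fold without mixed cells. Il17a, the gene of interleukin 17A, is not in the Th17 list, because the choice limits it with Cd163l1 to 1 UMI per cell. Under that limit it had 15 UMI in 15 members. A further 24 cells failed this limit alone, so the counts for Th17 genes are partly set by the choice.

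**Figure D3:**
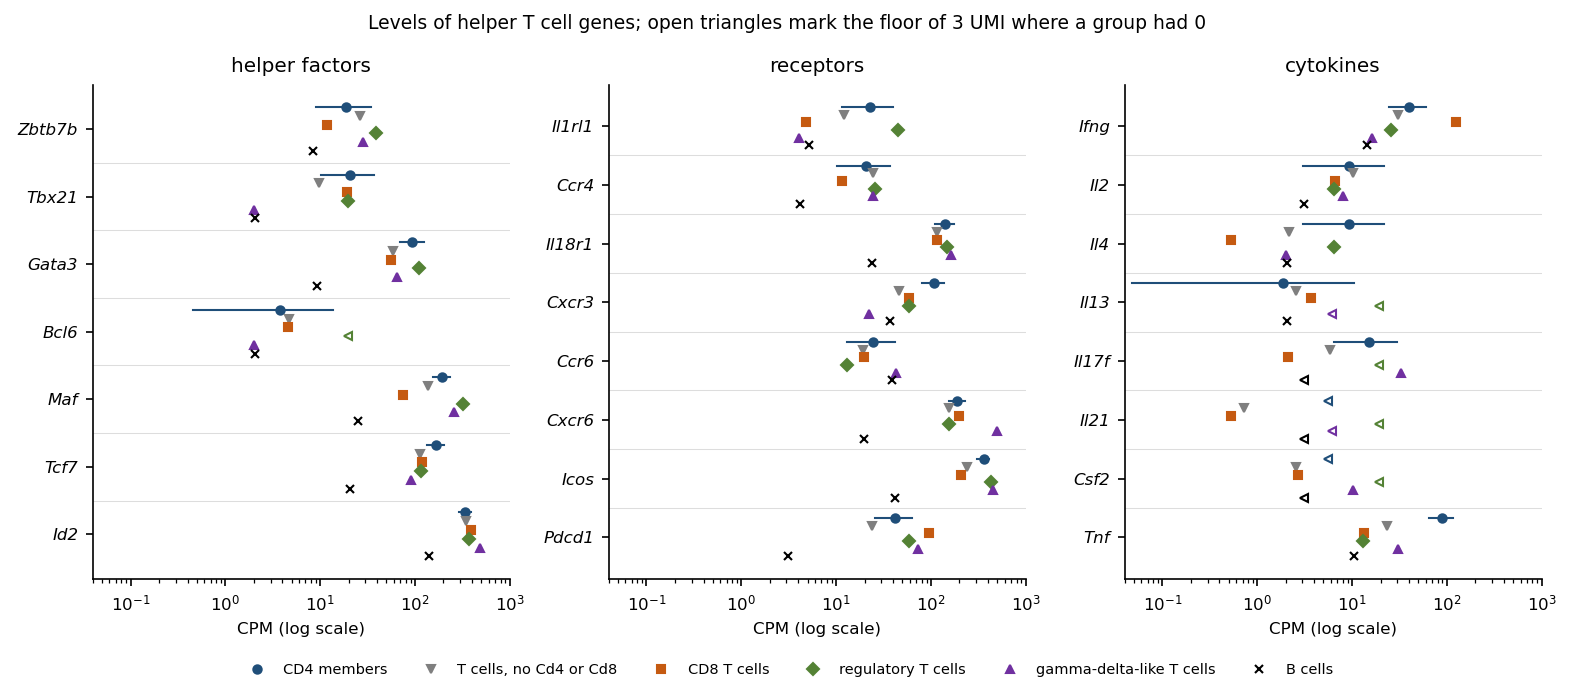
Levels in CPM (log axis) of 7 helper factors, 8 receptors and 8 cytokines in members and 5 other groups, with 95% Poisson intervals for members (the lower limit of Il13 runs to 0.0476 CPM) and open triangles at the floor of 3 UMI where a group had 0. Maf, Gata3 and Icos lie above the CD8 T cell level, Ifng below it, and Il4, Il13 and Il21 rest on 5, 1 and 0 UMI.

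Receptors linked to the helper lineages were more abundant than the cytokines. For Th1, Il18r1 (a chain of the interleukin 18 receptor) had 75 UMI in 53 members (141 CPM, 111 to 177) and Cxcr3 had 57 UMI in 43 members (107 CPM, 81.1 to 139). Cxcr3 was 1.82-fold (1.34 to 2.45) the level in CD8 T cells. For Th2, Ccr4 had 11 UMI in 11 members (20.7 CPM, 10.3 to 37.0), 1.80-fold (0.837 to 3.55) the level in CD8 T cells. For Th17, Ccr6 had 13 UMI in 12 members (24.4 CPM, 13.01 to 41.8), next to 19.8 CPM in CD8 T cells, 42.6 CPM in gamma-delta-like T cells and 38.5 CPM in B cells. Cxcr5, the receptor of follicular helper cells, had 6 UMI (11.3 CPM, 4.14 to 24.5), below the 45.7 CPM of B cells, whose transcript it also is. Ccr8 had 0 UMI in members (floor of 3 counts at 5.64 CPM). Of 14 homing receptors compared with CD8 T cells, 0 were at least 2-fold higher and 1 was lower, Cx3cr1 (11.3 against 23.0 CPM), with an interval of the ratio (0.175 to 1.11) that included equality. Without mixed cells Ccr2, Ccr9 and Ltb4r1 were higher and Cx3cr1 and Ccr1 lower.

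The follicular helper list leaned towards the members. Of 14 list genes compared with CD8 T cells, 3 were at least 2-fold higher in members: Izumo1r, the folate receptor 4 gene found on follicular helper and regulatory T cells (78.9 against 33.1 CPM, ratio 2.38, 1.64 to 3.41), P2rx7, an ATP receptor (26.3 against 6.41 CPM, ratio 4.10, 1.96 to 8.26), and Maf. Pdcd1, the gene of the inhibitory receptor PD-1, was lower (41.3 against 96.7 CPM, ratio 0.428, 0.265 to 0.657). The median log2 ratio of the list was 0.74, against 0.05 over all genes, and without mixed cells 5 were higher. The defining genes of the lineage were at or near 0, with 2 UMI of Bcl6, 0 of Il21 and 6 of Cxcr5. The genes that were higher are also expressed by other CD4 T cells.

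Il1rl1, the gene of the interleukin 33 receptor ST2 (chromosome 1 from 40429570 to 40465415, plus strand, GRCm38, protein-coding, ENSMUSG00000026069), had 12 UMI in 8 members. The level was 22.6 CPM (11.7 to 39.4), against 4.81 CPM (2.85 to 7.60) in CD8 T cells, a ratio of 4.69 (2.06 to 10.3). Without mixed cells that ratio was 6.37, and without the highest cell 3.96. Mast cell and basophil markers summed to 47.0 CPM in members, 55.3 CPM in those that were not mixed and 14.4 CPM in CD8 T cells. The part of such transcripts in the Il1rl1 ratio was not tested. T cells with neither Cd4 nor Cd8 had 11.99 CPM (8.25 to 16.8), gamma-delta-like T cells 4.06 CPM (0.492 to 14.7), B cells 5.198 CPM (1.69 to 12.1) and the 40 regulatory T cells 45.4 CPM (18.3 to 93.5; 7 UMI). The intervals of members and regulatory T cells overlapped. An Il1rl1 UMI was found in 4.85% of members (2.12 to 9.33%) and 1.77% of B cells (0.578 to 4.09%), and after thinning in 1.82% and 0%. The Th2 factor Gata3 was found in 39 members and together with Il1rl1 in 0. With Il1rl1 counted in 8 members, this does not show whether the same cells express both genes. Il1rap, the coreceptor chain, had 9 UMI (16.9 CPM, 7.73 to 32.1) and Myd88, the adaptor of the pathway, 10 UMI (18.8 CPM, 9.01 to 34.6). Sigirr, an inhibitory receptor of the family, had 27 UMI (50.7 CPM, 33.4 to 73.8). Of 8 pathway genes compared with CD8 T cells, Il1rl1 was at least 2-fold higher and Map3k7 lower, the latter from 1 UMI (ratio 0.190, 0.00469 to 1.13). Il33 itself had 1 UMI in members (1.88 CPM, 0.0476 to 10.47), next to 3.12 CPM in B cells.

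Residency and recirculation genes were both present. Of the residency list, Rgs1, a regulator of chemokine receptor signalling, had 223 UMI in 107 members (419 CPM, 366 to 478), 1.58-fold (1.36 to 1.82) the level in CD8 T cells. Cxcr6, the receptor of CXCL16 (chromosome 9 from 123806475 to 123811760, plus strand, GRCm38), had 101 UMI in 65 members (190 CPM, 155 to 231), next to 197 CPM in CD8 T cells and 499 CPM in gamma-delta-like T cells. Rgs2 stood at 333 CPM and the adhesion receptor gene Cd44 at 235 CPM. Itgae, the gene of CD103, had 10 UMI (18.8 CPM), and Zfp683, the gene of Hobit, 1. Of the recirculation list, Klf2, which drives S1pr1 expression, had 281 UMI in 116 members (528 CPM, 468 to 594) and Il7r 204 UMI in 87 members (383 CPM, 333 to 439.7). Ccr7 had 35 UMI in 20 members (65.8 CPM, 45.8 to 91.5). Of 13 residency genes compared with CD8 T cells 0 passed 2-fold, and of 15 recirculation genes only Dapl1 did, which was lower in members (15.0 against 54.8 CPM, ratio 0.275, 0.117 to 0.551). Without mixed cells Ccr2, which is on the residency list, was higher (3.37). It is also a macrophage and monocyte marker that defines mixed cells, so this value is partly set by that definition.

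The 4 effector memory genes with the most UMI were found in most members. Crip1, a LIM domain protein gene, had UMI in 161 of 165 members (2052 CPM, 1932 to 2178) and S100a10 in 161 (1620 CPM, 1514 to 1732). S100a6 stood at 1526 CPM and Lgals1, the gene of galectin 1, at 1426 CPM. At the other end, Anxa1 had 30 UMI in 22 members (56.4 CPM), and Lgals3 was found in 57 members. None of the 14 list genes passed 2-fold against CD8 T cells. The list summed to 10915 CPM in members, 8980 CPM in CD8 T cells and 14827 CPM in gamma-delta-like T cells. B cells had 6088 CPM of it, so finding these transcripts in most members does not set the members apart. In the interferon list Ifi27l2a had the most UMI (966 CPM, 884 to 1053) and was 1.78-fold (1.61 to 1.96) the level in CD8 T cells. Of 18 interferon genes compared, 0 were at least 2-fold higher and 2 lower, Ifit3 and Usp18, with 2 UMI each in members. Without mixed cells Ifi27l2a was higher (2.08) and Ifit3 lower. Of 20 activation and immediate early genes, 0 were higher and Egr2 was lower, from 1 UMI, while without mixed cells Nr4a2 was the one lower (0.477). Junb was the most counted of these (594 UMI in 152 members, 1116 CPM).

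Against the 1129 CD8 T cells, gated alike but with Cd8 and without Cd4, the members had less of the cytotoxic program and more of Cd40lg. Of 12 cytotoxic genes compared, 6 were at least 2-fold lower and 0 higher, with a median log2 ratio of -1.32. Nkg7, a granule membrane protein gene, stood at 408 CPM in members and 1521 CPM in CD8 T cells, 3.73-fold higher in the latter (3.26 to 4.29). Klrd1, the gene of the CD94 receptor, was 4.55-fold higher in CD8 T cells (3.15 to 6.83), Cst7, which encodes cystatin F, 5.68-fold (3.69 to 9.22), Gzma 3.18-fold (1.93 to 5.62) and Gzmb, a granzyme gene like Gzma, 4.55-fold (1.91 to 14.2). Klrc1, the partner of Klrd1, was the remaining one. Gzmc and Prf1 had 0 UMI in members. Without mixed cells, 8 of the 12 were lower.

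Some inhibitory receptors were lower in members. Of 12 compared, Cd160, Lag3 and Pdcd1 were at least 2-fold lower in members, 0 were higher, and the median log2 ratio was -0.36. Lag3, an MHC class II binding receptor, stood at 47.0 CPM (30.4 to 69.4) in members and 189 CPM in CD8 T cells, 4.01-fold higher there (2.70 to 6.24). Cd160 had 1 UMI in members and 150 in CD8 T cells (ratio 0.0469, 0.00118 to 0.265). Ctla4, a competitor of Cd28 for its ligands, had 109 CPM (82.8 to 141) against 98.0 CPM, and Cd5, which dampens receptor signalling, 92.1 against 46.5 CPM (ratio 1.98, 1.41 to 2.73). Without mixed cells Cd5 passed 2-fold (2.07), and Cd244 (0.369) joined the 3 lower ones. Among 13 costimulatory genes 3 were higher in members and 2 lower. Besides Cd40lg the higher ones were Tnfrsf25, a death receptor family gene (ratio 2.56, 1.53 to 4.14), and Slamf1 (2.09, 1.31 to 3.24), the latter at 1.98 without the highest cell. Those lower were Tnfrsf9, the gene of 4-1BB (16.9 against 61.2 CPM, ratio 0.277, 0.125 to 0.534), and Tnfsf14, from 3 UMI, of which Tnfrsf9 alone was lower without mixed cells.

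Chemokine genes differed in both directions. Of 9 compared, 4 were at least 2-fold lower in members (Ccl1, Ccl5, Xcl1 and Ccl20) and 2 higher (Cxcl16 and Ccl22), with a median log2 ratio of -0.39. Cxcl16, the ligand of CXCR6, had 29 UMI in 16 members (54.5 against 25.9 CPM, ratio 2.10, 1.34 to 3.21), which was 1.78 without the highest cell and 1.40 without mixed cells. Without mixed cells Ccl22, itself a marker that defines those cells, and Cxcl10 (2.001) were the higher ones, and Ccl1, Ccl5 and Xcl1 the lower. Xcl1, a chemokine for cross-presenting dendritic cells, had 18 UMI in 16 members (33.8 CPM, 20.05 to 53.5) and 443 CPM in CD8 T cells, a 13.1-fold difference (8.26 to 22.2). Ccl1, the ligand of CCR8, had 28 UMI in 16 members (52.6 CPM) and 476 CPM in CD8 T cells, a 9.05-fold difference (6.24 to 13.7). In CD8 T cells 300 of its UMI lay in 1 cell, and without the highest cell of each group the difference was 11.1-fold. Ccl5, a chemokine gene of memory and effector T cells, was 2.44-fold higher in CD8 T cells (2.27 to 2.62), and Penk, the enkephalin precursor gene, was 12.4-fold higher there (5.26 to 38.3; 5 against 435 UMI). Ccl3 and Ccl4 did not pass 2-fold.

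Over all genes compared, 210 of 7754 were at least 2-fold higher in members and 455 at least 2-fold lower. The intervals of 131 of the higher and 114 of the lower genes excluded equality. Of the 210, 108 were still higher when the highest cell of each gene and group was left out, and 139 without mixed cells. Of the 455 these numbers were 394 and 267. Leaving out 1 cell takes a larger share of the 165 members than of the 1129 CD8 T cells, which tends to lower the ratios. The 108 and 394 therefore do not show which direction is steadier. The 12 highest ratios were those of Ccl7 (78 against 0 UMI, 182.9-fold against a floor of 3 counts over the CD8 T cells, with a lower counting limit of 145), Scgb1a1 (8.01), Tnf (6.61), Cd40lg (5.67), Fabp1 (5.15), Ccl17 (4.97), Nav2 (3.52), Slc25a45 (3.14), Il17re (3.06), Ccl22 (3.04), Cxcl9 (3.004) and Ass1 (2.92). Without the highest cell, the ratio fell under 2 for Scgb1a1 (0.889), Tnf (1.80), Fabp1 (1.29) and Cxcl9 (1.68). Ccl17 was at 2.75 without the highest cell and at 1.52 without mixed cells. Markers of macrophages, dendritic cells and secretory cells moved with these genes in the mixed members, and their part in the ratios was not tested.

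Cd40lg, Nav2, Slc25a45, Il17re and Ass1 kept ratios over 2 in both alternatives. Ccl22 was over 2 in both as well (2.01 and 5.25), but 14 of its 22 UMI lay in 1 of 5 members. It is also a marker that defines mixed cells, so its value without them is no independent check. Ccl7 was found in 2 members, both of them mixed, and its ratio to the floor was 14.1 without the highest cell. Without mixed cells neither group had a Ccl7 UMI, so no ratio can be given. Nav2, a cytoskeletal protein gene, had 21 UMI in 20 members (39.5 against 11.2 CPM). Il17re, a receptor chain for interleukin 17C, had 20 UMI in 16 members (37.6 against 12.3 CPM). Ass1, the arginine synthesis enzyme gene, had 46 UMI in 37 members (86.4 against 29.6 CPM) and a ratio without mixed cells of 3.22. The 12 lowest ratios were those of Cd160, Ece1, Xcl1, Penk, Crtam, Klre1, Ccl1, Sema6d, Cib2, Wdr95, Nt5dc1 and Btg3, between 0.0469 and 0.130. Of these, Cd160, Ece1, Crtam, Sema6d, Wdr95, Nt5dc1 and Btg3 had 1 UMI in the members and Klre1, a killer lectin receptor gene, had 2, so those ratios have wide intervals. Cib2 had 4 UMI in members and 240 in CD8 T cells (8.53-fold higher there, 3.29 to 31.6).

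**Figure D4:**
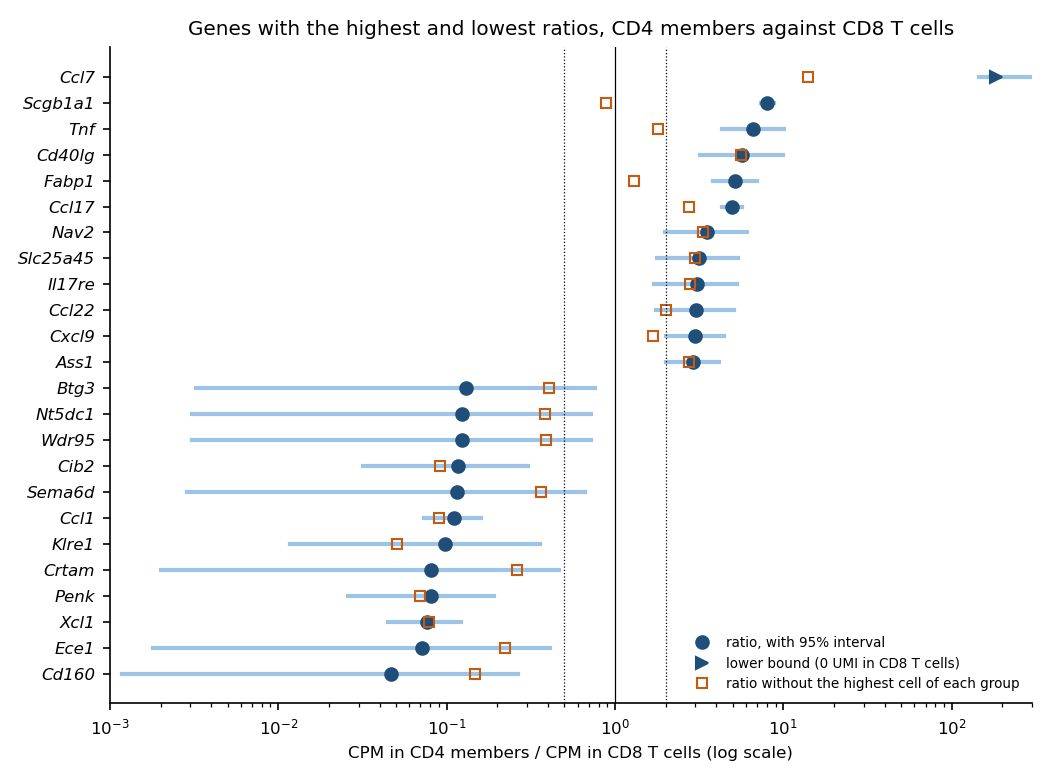
Ratio of CPM in members over CD8 T cells (log axis) for the 12 highest and 12 lowest genes with at least 50 UMI, as blue points with 95% intervals (a triangle for the lower bound of Ccl7), and without the highest cell of each group as orange squares; dotted lines stand at 2-fold. Scgb1a1 moves from 8.01 to 0.889 and Tnf from 6.61 to 1.80, while Cd40lg moves from 5.67 to 5.58.

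Regulatory T cells with Cd4 (40 cells, with at least 1 Foxp3 or at least 2 Ikzf2 UMI) differed from the members in the genes of their own program. These groups were parted by Foxp3 and Ikzf2, so genes that vary with both were bound to differ, and the counts are a description. Of 12 genes of the regulatory list that could be compared, 8 were at least 2-fold lower in members and 0 higher, with a median log2 ratio of -1.56. Over all 2535 genes compared, 3.08% were at least 2-fold lower in members and 5.36% higher. Il2ra, the high-affinity chain of the interleukin 2 receptor, had 5 UMI in 5 members (9.40 CPM, 3.05 to 21.9) and 162 CPM in regulatory T cells, 17.3-fold higher there (6.49 to 57.7). Tnfrsf9 was 14.6-fold higher in them (6.93 to 34.3), and Klrg1, a lectin receptor gene of effector cells, 5.84-fold (2.81 to 12.6). Tnfrsf4 was 4.07-fold higher (2.81 to 5.91), Tnfrsf18 3.61-fold (2.54 to 5.12) and Ctla4 2.80-fold (1.86 to 4.18). Areg, an epidermal growth factor receptor ligand gene, was 3.02-fold higher (1.36 to 6.60) and Izumo1r 2.88-fold (1.78 to 4.61). Without mixed cells 9 of the list were lower.

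The members were still not free of these transcripts. Tnfrsf18 had a UMI in 50 members, Ctla4 in 37, Tnfrsf4 in 36, Klrg1 in 10 and Il2ra in 5. Of 18 genes of the regulatory list compared with CD8 T cells, 3 were at least 2-fold higher in members (Il1rl1, Izumo1r and Klrg1) and 4 lower (Il2ra, Tnfrsf9, Gzmb and Penk). Klrg1 stood at 24.4 against 8.01 CPM (ratio 3.05, 1.46 to 6.02), and without mixed cells Areg was higher as well (2.05). Regulatory T cells with an uncounted Foxp3 cannot be told apart from conventional cells with these genes here.

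Among the genes higher in members than in regulatory T cells were Tnfsf8, Pik3r1 and Fam177a. Tnfsf8 stood at 162 CPM (129 to 199.6) against 45.4 CPM, a ratio of 3.56 (1.66 to 9.12), which was 4.18 without mixed cells. Pik3r1, the regulatory subunit of phosphoinositide 3-kinase, had a ratio of 3.69 (1.36 to 14.1) and Fam177a one of 3.13 (1.26 to 10.0). Of the recirculation list, S1pr1, the receptor for egress from tissue, was higher (150 against 64.9 CPM, ratio 2.32, 1.20 to 5.02), as was Ccr7 (ratio 2.54), whose interval (0.907 to 9.82) included equality and whose ratio without mixed cells was 1.39. Slamf6, a SLAM family receptor gene, was 2.81-fold higher (1.46 to 6.05). The remaining 9 of the 12 highest ratios belonged to Scgb1a1, Fabp1, Ccl7, Ctsk, Ccl3, Ccl6, Ifitm1, Ccl4 and Ccl9, genes of secretory and myeloid cells in the main. The ratio of Scgb1a1 went from 12.2 to 1.502 without the highest cell. Ccl3 and Ccl4, which T cells also make, had ratios of 6.90 (2.87 to 21.6) and 4.06 (2.48 to 7.08) that rested on 5 and 17 UMI in the regulatory T cells.

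The lowest ratio was that of Tff1, a trefoil peptide gene, with 19 UMI in 6 members and 46 in 10 regulatory T cells (35.7 against 298 CPM, 8.36-fold higher in the latter, 4.80 to 15.1). Fam46a (ratio 0.230), Arl5a (0.238), Tnfrsf4, Tnfrsf18, Mzb1 (0.334), Izumo1r, Ctla4, Syngr2 (0.394), Glrx (0.395), Fgl2 (0.404) and Pglyrp1 (0.418) followed. Fgl2 encodes a secreted fibrinogen-like protein of regulatory T cells. Mzb1 is a plasma cell gene, with 22 of its 33 UMI in regulatory T cells in 1 cell, and without the highest cell of each group its ratio was 0.632. Maf was lower in members at a ratio of 0.603 (0.425 to 0.866) and Gata3 and Icos had ratios of 0.852 (0.483 to 1.58) and 0.839 (0.631 to 1.13).

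**Figure D5:**
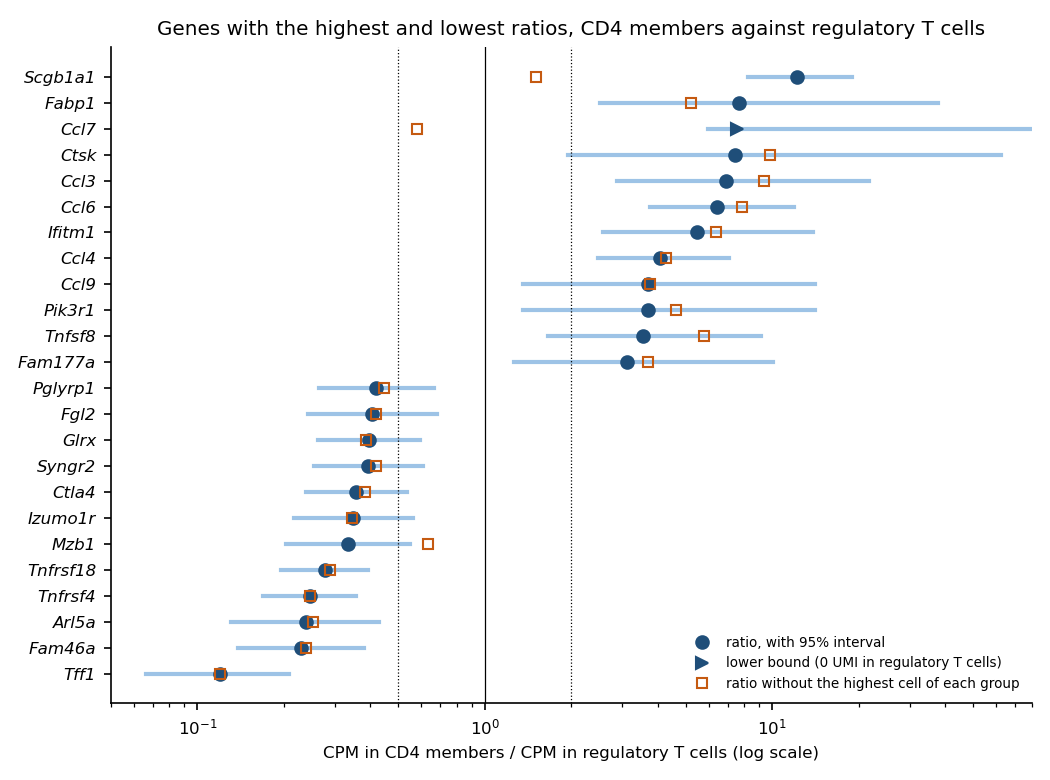
Ratio of CPM in members over the 40 regulatory T cells with Cd4 (log axis) for the 12 highest and 12 lowest genes, drawn as for CD8 T cells. Tnfrsf4, Tnfrsf18 and Ctla4 lie at 0.246, 0.277 and 0.358, while Scgb1a1 moves from 12.2 to 1.502 and the lower bound of Ccl7 from 7.53 to 0.580.

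T cells gated alike but without a Cd4 UMI (885 cells with neither Cd4 nor Cd8) had less of the T cell receptor signalling list than the members (2159 against 3309 CPM), though under 2-fold. This comparison was added after the data were seen. At least 2-fold higher in members were 1.76% of the 7165 genes compared, and 5.89% were at least 2-fold lower. Of 13 costimulatory genes 4 were higher: Cd40lg, Tnfsf8 (162 against 76.7 CPM, ratio 2.11, 1.62 to 2.72), Tnfsf11 (2.66, 1.39 to 4.92) and Slamf1 (2.37, 1.44 to 3.79). Without mixed cells Tnfsf11 alone was higher, and the ratio of Cd40lg was 1.66. Of 9 Th1 genes 3 were higher (Tbx21, Cxcr3 and Tnf), and 0 without mixed cells. Of 12 follicular helper genes 3 were higher (Slamf6, Izumo1r and P2rx7), and Slamf6 alone without mixed cells. Cxcr3 was 2.30-fold higher in members (1.66 to 3.17; 1.95 without mixed cells), and Gata3 1.62-fold (1.15 to 2.23). Tbc1d4, a regulator of glucose transporter traffic, was at 2.56 (1.77 to 3.65), Slc7a6os at 2.65 and Srgap2 at 2.36. The other 3 of the 8 highest ratios were those of Ccl7, Tnf and Fabp1, and those of Tnf and Fabp1 were 1.07 and 0.578 without the highest cell. T cell receptor signalling genes had a median log2 ratio of 0.61, against -0.01 over all genes, with 0 of 15 past 2-fold.

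The 8 lowest ratios in this comparison included 3 globin genes. Hba-a2, Hbb-bt and Hbb-bs, globin genes whose near-identical copies share reads, had ratios of 0.122 (0.0752 to 0.188), 0.128 (0.0659 to 0.227) and 0.157 (0.126 to 0.194). Without mixed cells these were 0.642, 0.569 and 0.930. The 3 genes are among the markers that define mixed cells, so the cells with the most globin were left out by these genes themselves. The group without Cd4 or Cd8 held more mixed cells (47.2% against 26.7%), and its macrophage markers summed to 7419 CPM and its killer cell markers to 2572 CPM, against 3309 and 1314 CPM in the members. The killer cell list includes Tyrobp and Fcer1g, which myeloid cells also carry, so its sum is not that of killer cells alone. The part of these markers and of the mixed cells in the comparison was not tested. Of 12 cytotoxic genes 2 were lower in members (Gzma and Gzmc) and 1 higher (Fasl, ratio 2.14, 0.995 to 4.32), and without mixed cells 4 were lower and 0 higher. Gzmc had 126 UMI in the group without Cd4 or Cd8, 117 of them in 1 cell, and 0 in members, so its ratio rests on that cell. Ece1, Siglece, Slco2a1 and Gal had between 1 and 3 UMI in the members, with ratios between 0.0958 and 0.176. Without mixed cells Slco2a1 alone of these stayed under 0.5 (0.424), and Siglece was at 1.32. No UMI of Slco2a1 or Siglece was then left in members, so both values were set by the floor of 3 counts. The value for Siglece is no higher level in members.

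Within the members, those with a Pdcd1 UMI (18 cells) were set against the 147 without one. Of 1993 genes compared, 3.81% were at least 2-fold higher and 9.38% at least 2-fold lower in the Pdcd1 members. The highest ratios were those of Ramp1, a receptor component for the neuropeptide CGRP (394 against 109 CPM, ratio 3.61, 2.09 to 6.05; 9 of its 22 UMI in 1 cell), Tnfaip8 (3.45, 1.91 to 6.00), Banf1 (2.92), Hspa1a (2.68; its near-identical copy Hspa1b can share reads), B4galnt1 (2.67), Neurl3 (2.56), Mat2a (2.53) and Bcl11b, a T cell lineage factor gene (2.20, 1.19 to 3.87). Without the highest cell of each group the ratios of Hspa1a and Bcl11b were 1.86 and 1.88. Tnfaip8 was found in 14 of the 18 cells and in 45 of the 147. Of 10 residency genes 2 were higher, Rgs2 (2.11, 1.41 to 3.07) and Rbpj (2.48, 1.04 to 5.34), which were 1.85 and 1.77 without the highest cell, and Cxcr6 had a ratio of 1.85 (1.05 to 3.11). Tcf7 was lower (3 against 85 UMI, ratio 0.301, 0.0610 to 0.911), as was Runx3 (3 against 68 UMI, 0.377, 0.0758 to 1.15).

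The 8 lowest ratios in this split were those of Ccl4, Scgb1a1, Ccl17, Chil3, Ifitm1, Ccl6, Krit1 and Wfdc17. Apart from Krit1 these are transcripts that myeloid or secretory cells carry. Mixed members were 2 of 18 with Pdcd1 (11.1%, 1.38 to 34.7%) and 42 of 147 without (28.6%, 21.4 to 36.6%), and the part of this in the comparison was not tested. Without mixed cells the ratio of Chil3 was 1.07, while Ccl4 was at 0.121 and Ccl6 at 0.0611. Cd40lg stood at 71.7 CPM (19.5 to 184; 4 UMI) with and 44.1 CPM (27.3 to 67.4) without Pdcd1, and Maf had a ratio of 1.03 (0.498 to 1.94), so neither differed beyond its counting interval.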

How the data were processed

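The authors deposited 1 table of raw counts, with a whole number of UMI for each of 17790 genes in each cell, and 1 table with the library and class of every cell. Sums over the counts matched the deposited totals in all 15389 cells. Per the series design text, 98 base pair reads were mapped to mm10; the submitters' processing notes name the tool as Cell Ranger 1.1.0. The CD45-positive library held 47477407 UMI and the CD45-negative library 40873786 UMI.

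All deposited cells were used, and no doublet caller was run. UMI were summed per group and given as CPM with exact Poisson intervals. Shares of cells had exact Clopper-Pearson intervals, and were repeated with every cell thinned to 1000 UMI (0 cells were too shallow). Ratios had exact conditional-binomial intervals. The level was 95% throughout. Genes with at least 30 UMI in both groups together were compared, without the 19 genes of the gates or the genes of a split, and a ratio past 2 in either direction counted as higher or lower. A group at 0 was set to 3 counts. Named were the 12 highest and 12 lowest ratios against CD8 and regulatory T cells and the 8 highest and 8 lowest elsewhere, among genes with at least 50 UMI, up to 4 genes per list with the most UMI, Cd40lg, Il33 and Il1rl1. List genes past 2-fold, and others used to describe a group, were named after their values were seen. The members and the 20 lists (242 of 248 genes in the table) were chosen with earlier results of these data known. A few list genes, and a planned split of the members that rested on one of them, are not reported here. Tested on simulated data, the step ran on 7759 genes for CD8 T cells and gave medians of 2.02 and 3.98 for 100 genes each with 2-fold and 4-fold changes. The simulated counts were Poisson draws of the group sums, without spread between cells or mixed cells. They therefore do not cover genes whose UMI lie mostly in 1 cell. Alternatives were UMI minimums of 20 and 100, the mean of per-cell CPM, stricter gates, limits on depth and mitochondrial share, thinning, other definitions of regulatory T cells and, added after the data were seen, leaving out the highest cell or mixed cells. Gene positions came from the GENCODE annotation of GRCm38. Software was scipy 1.17.1, numpy 2.4.6 and pandas 2.3.3 under Python 3.11.15, with figures from matplotlib 3.10.9.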

Additional observations from a re-analysis of the deposited data

How the results depend on the processing

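Counts of genes past 2-fold changed with depth, with the gates and with the cells left out. Against CD8 T cells, the 210 genes higher became 333 and 18 with minimums of 20 and 100 UMI, 900 with at least 2 Cd4 or Cd8 UMI, and 109 without each gene's highest cell. The 455 genes lower became 67 with a minimum of 100 UMI, 277 after thinning and 771 without the highest cell. Against regulatory T cells, the 136 genes higher became 268 and 19 with those minimums, 46 with at least 2 Cd4 UMI, 73 with the stricter gate, 47 after thinning, 68 with regulatory T cells of any Cd4 count, 226 with those defined by Foxp3 alone and 242 without the highest cell. The 78 genes lower became 179, 6, 6, 50 and 26 under the first 5 of these settings in order, 135 with any Cd4 count, 51 without the highest cell and 48 without mixed cells. In the Pdcd1 split, the 76 genes higher became 185 and 2 with the minimums, 9 with at least 2 Cd4 UMI, 20 after thinning, 26 without the highest cell and 40 without mixed cells. The 187 genes lower became 345, 35 and 42 under the first 3, 108 with the stricter gate, 65 after thinning, 385 without the highest cell and 110 without mixed cells. Against T cells without Cd4 or Cd8, the 126 genes higher became 198 and 16 with the minimums, 868 with at least 2 Cd4 UMI, 79 after thinning, 69 without the highest cell and 70 without mixed cells. The 422 genes lower became 63 with a minimum of 100 UMI, 225 after thinning, 752 without the highest cell and 166 without mixed cells. The cause was not tested, except that higher minimums and thinning leave fewer genes to compare. In each of these counts a group without a UMI of a gene was set to 3 counts. With at least 2 Cd4 UMI, 28 members remained, and the floor can then place a gene without a UMI in them past 2-fold higher. The 900 and 868 genes can therefore include genes not counted in those members, and their number was not tested. They do not show how many genes were higher in members.

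With at least 2 Cd4 UMI (28 members), Cd40lg stood at 91.5 CPM and Il1rl1 at 50.8 CPM, and thinning put the share with a Cd4 UMI at 6.10%. Some log2 ratios changed sign. Against CD8 T cells with at least 2 Cd4 or Cd8 UMI these were Scgb1a1 (-0.72), Ece1 (0.15), Crtam (0.056), Sema6d (0.65), Wdr95 (0.82), Nt5dc1 (0.73) and Btg3 (0.99). Without cells above 2 times the median UMI they were Scgb1a1 (-0.15) and Cxcl9 (-0.50), and without the highest cell Scgb1a1 (-0.17). Against regulatory T cells without the highest cell it was Ccl7 (-0.79). Against T cells without Cd4 or Cd8 they were, with at least 2 Cd4 UMI, Fabp1 (-1.04), Ece1 (0.64), Siglece (0.66) and Slco2a1 (0.46), without deep cells Fabp1 (-0.77), and without the highest cell Fabp1 (-0.79) and Gzmc (0.79). Where a group was at 0 UMI these are bounds set by the floor of 3 counts. No paired analysis was possible because each fraction has 1 library.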
